A study of Mus musculus with 8 samples.

Results

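The genes Tnfsf11, Tnfrsf11a and Tnfrsf11b encode the cytokine RANKL, its receptor RANK and the decoy receptor osteoprotegerin, and they were followed here through RNA sequencing of group 3 innate lymphoid cells (ILC3s) from mouse large intestine. The genes were taken by name and are 3 of 27179 gene rows in the count table. Tnfsf11 and Tnfrsf11a were among the 8878 genes that passed the filter on low counts, and Tnfrsf11b was not. The cells had been sorted as CCR6+ CD127+ CD90-high cells without T, NK, B or myeloid surface markers from untreated C57BL/6 mice, with 1 library from each of 4 mice per group. In the Zbtb46-deficient group (replicates 5 to 8) both alleles of Zbtb46, a zinc finger transcription factor, were floxed and a Cre recombinase active in ILC3s was present. The Zbtb46-sufficient group (replicates 1 to 4), which the labels call WT, carried the same floxed alleles without Cre. Cre itself was therefore present in the deficient group alone, and its effect cannot be told apart from that of the deletion. The age and sex of the mice are not given in the labels. The comparison asks which transcripts of these cells differ when Zbtb46 is deleted.

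RANKL is a TNF family cytokine that is made as a membrane protein and can be released by proteases. It binds RANK, whose cytoplasmic tail recruits TRAF adaptors and activates NF-kB, MAP kinases and the transcription factors of osteoclast formation. Osteoprotegerin is secreted and binds RANKL without signalling. In lymphoid tissue, RANKL from ILC3-related inducer cells and from stromal cells is needed in mice for lymph node development and for M cells, the epithelial cells that carry antigen over the gut lining. RANK has also been described on mouse ILC3s, where its signals restrain the production of interleukin 17 and interleukin 22.

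The promoters of the ligand and receptor genes are shown because these genes stood far apart in level in the same cells. Both come from the RefSeq table for GRCm38.p6, the assembly behind mm10, and span 300 bases around the annotated start, read along the gene. By the gene coordinates given below, the Tnfrsf11a window reaches farther past the start of its gene than the Tnfsf11 window does. Capitals mark the TATA box of Tnfsf11 (the letters TATAA) and the GC boxes of Tnfrsf11a (the letters GGGCGG), each searched on both strands.
Tnfsf11, chr14:78307994-78308293, minus strand: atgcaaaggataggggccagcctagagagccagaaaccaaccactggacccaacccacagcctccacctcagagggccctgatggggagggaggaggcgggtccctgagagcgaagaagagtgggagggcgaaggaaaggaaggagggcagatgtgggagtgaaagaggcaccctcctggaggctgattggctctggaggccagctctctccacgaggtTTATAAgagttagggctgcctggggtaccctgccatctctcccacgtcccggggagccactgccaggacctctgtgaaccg
Tnfrsf11a, chr1:105780473-105780772, plus strand: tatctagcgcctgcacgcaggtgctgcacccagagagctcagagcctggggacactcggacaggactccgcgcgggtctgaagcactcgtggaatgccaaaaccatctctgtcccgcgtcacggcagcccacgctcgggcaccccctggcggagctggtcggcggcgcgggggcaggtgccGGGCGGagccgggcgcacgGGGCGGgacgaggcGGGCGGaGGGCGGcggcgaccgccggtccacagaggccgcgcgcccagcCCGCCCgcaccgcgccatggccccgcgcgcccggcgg
The Tnfsf11 window held TATAA on both strands, overlapping as TTATAA, starting 31 bases before the annotated start, and it held 0 GC boxes. The Tnfrsf11a window held 5 GC boxes and 0 matches to TATAA. Of 32851 mouse promoters of this length, 24.9% held TATAA and 35.7% held GGGCGG. The Tnfsf11 window was 61.7% G and C with 7 CpG dinucleotides. The Tnfrsf11a window was 76.7% G and C with 43 CpG dinucleotides, where the median over all promoters was 52.7% and 7. CCAAT, searched in the same way and present in 37.4% of promoters, matched 1 time in Tnfsf11 and 0 times in Tnfrsf11a. A loose NF-kB site pattern, 3 G followed by any 5 bases and 2 C on either strand, occurred in 50.8% of promoters and matched in both windows, 2 times in Tnfsf11 and 3 times in Tnfrsf11a. Of those 3 matches, 2 are the same bases read on both strands and 1 overlaps a GC box. These matches describe the letters of the window and do not show that a factor binds there.

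Library totals ran from 26967170 to 33760743 counts in deficient and from 25328231 to 29175568 in sufficient libraries. Levels are given as CPM, the usual depth-scaled read counts, on library sizes adjusted with TMM factors, and a count of 0 allowed up to 0.0856 to 0.124 CPM, taken as 3 counts. Zbtb46 itself was at 4.82, 0.532, 3.19 and 0.125 CPM in deficient replicates 5 to 8, against 8.02, 48.8, 88.9 and 26.6 CPM in sufficient replicates 1 to 4, a difference whose exact two-sided permutation p, 0.0286, is the lowest possible for 4 against 4. Its log2 fold was -4.31 (standard error, SE, 1.42), and edgeR's quasi-likelihood test gave an adjusted p of 0.885 over all tested genes. The CCR6+ ILC3 markers were present in every library, and Ccr6 lay between 72.8 and 340 CPM. Their summed levels were 24368 to 30181 CPM in deficient and 25483 to 37452 CPM in sufficient libraries. Most of each sum was the cytokine gene Il22, at 13570 to 25512 CPM. Markers of other cells stood apart in single libraries. Epithelial genes summed to 1369 CPM in sufficient replicate 2, whereas no other library exceeded 28.7 CPM. Stromal genes reached 499 CPM in deficient replicate 7 and 786 CPM in sufficient replicate 1. Of these, Dcn alone gave 134 and 687 CPM, and Col3a1 gave 244 and 72.4 CPM. Macrophage and neutrophil genes reached 374 and 769 CPM in deficient replicates 5 and 7, mostly as S100a8 and S100a9. Markers of NK cells and ILC1s summed to 189 to 634 CPM in deficient and 49.8 to 248 CPM in sufficient libraries. The largest part in every deficient library was Ncr1, at 447, 148, 151 and 270 CPM, against 0.0391, 41.1, 67.4 and 198 CPM in sufficient ones. Other members were not raised in this way. Prf1 had 0 counts in all libraries, Eomes stayed at or below 0.0571 CPM, and Gzma reached 59.4 CPM in deficient replicate 5 and at most 0.228 CPM elsewhere. T cell markers summed to 34.6 to 219 CPM in deficient and 28.1 to 145 CPM in sufficient libraries, and B and plasma cell markers to 2.03 to 79.3 CPM in deficient and 5.90 to 136 CPM in sufficient ones. At an adjusted p under 0.05, edgeR called 0 of the 8878 tested genes (0%), 364 (4.10%) had an unadjusted p under 0.05, and limma-voom with sample weights called 0. DESeq2 called 374 of the 11478 genes to which it gave an adjusted p (3.26%).

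RANKL was an abundant transcript in every library, and its level was close to equal in the groups. Tnfsf11 (Entrez ID 21943) lies on chromosome 14 from 78277446 to 78308043 (RefSeq annotation of GRCm38.p6, as for each gene here), on the minus strand, and its annotated transcript has 5 exons that together measure 2236 bases. It had 106905, 92578, 101910 and 97223 counts in deficient replicates 5 to 8, against 83033, 72074, 77452 and 93964 counts in sufficient replicates 1 to 4. On the CPM scale these were 3051, 3516, 3188 and 3042 CPM in deficient libraries, against 3250, 2982, 2791 and 3693 CPM in sufficient ones. Both the lowest and the highest library belonged to the sufficient group, replicates 3 and 4, and every deficient library lay between them. Tnfsf11 averaged 3199 ± 221 CPM in deficient and 3179 ± 391 CPM in sufficient ILC3s (SD, n = 4 each). The log2 fold, deficient over sufficient, was 0.0091 (SE 0.161) with an adjusted p of 0.9999 in edgeR's quasi-likelihood test. Its 95% interval ran from -0.35 to 0.37 on the log2 scale, which is 0.785-fold to 1.29-fold. A difference in RANKL transcript beyond those bounds lies outside the interval, and a smaller one was not detectable with these libraries. The exact two-sided permutation p for the mean CPM was 0.886. In sorted cells measured in bulk, fewer cells that make a transcript and less transcript per cell cannot be told apart.

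**Figure D1:**
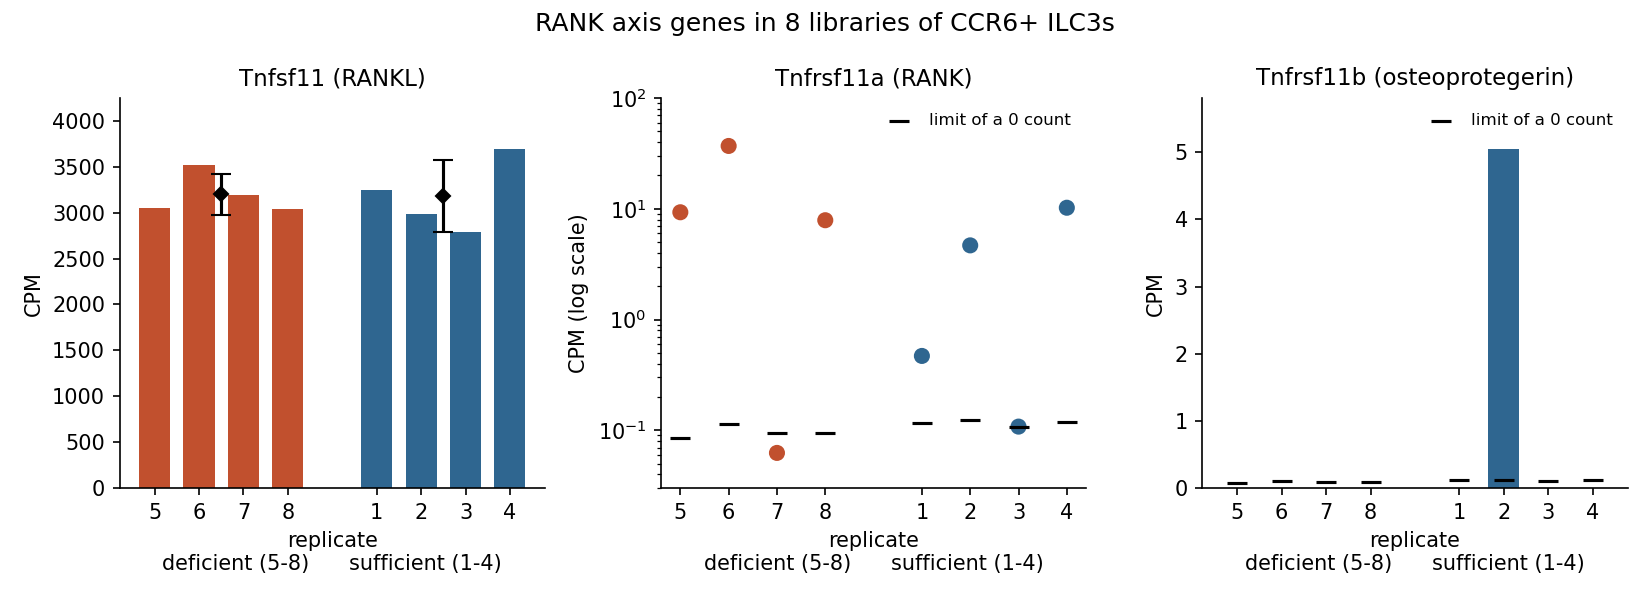
Levels of the 3 genes in each library in CPM, with Zbtb46-deficient replicates 5 to 8 left of sufficient replicates 1 to 4. Tnfsf11 bars carry the group mean and SD (diamonds), Tnfrsf11a is on a log scale, and short black dashes mark the level that a count of 0 allows (3 counts). Tnfsf11 stays between 2791 and 3693 CPM, Tnfrsf11a spans 0.0626 to 36.9 CPM, and Tnfrsf11b appears in sufficient replicate 2 alone, at 5.05 CPM.

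RANKL took 0.306% to 0.344% of all counts in deficient and 0.265% to 0.347% in sufficient libraries. Scaled to exon length, which allows levels of different genes to be compared, Tnfsf11 averaged 1426 CPM per kb over the 8 libraries and ranked 36 among 8372 tested genes with a known length. In single libraries its rank lay between 23 and 67. The spread of its level between mice was also small for this data set. Its coefficient of variation was 6.92% within the deficient and 12.3% within the sufficient group, and the highest library was 1.32 times the lowest. Among the 60 tested genes with a mean level within a factor of 2 of that of Tnfsf11, itself included, the within-group coefficient of variation ran from 9.96% to 43.7% with a median of 22.3%. The value of 9.96% was that of Tnfsf11, the lowest of the 60. The same 60 genes held 0 with a fitted log2 fold closer to 0. The standard error of its log2 fold, 0.161, compares with a median of 0.230 over these 60 and 1.12 over all tested genes. These ranks are descriptions and were not tested.

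**Figure D2:**
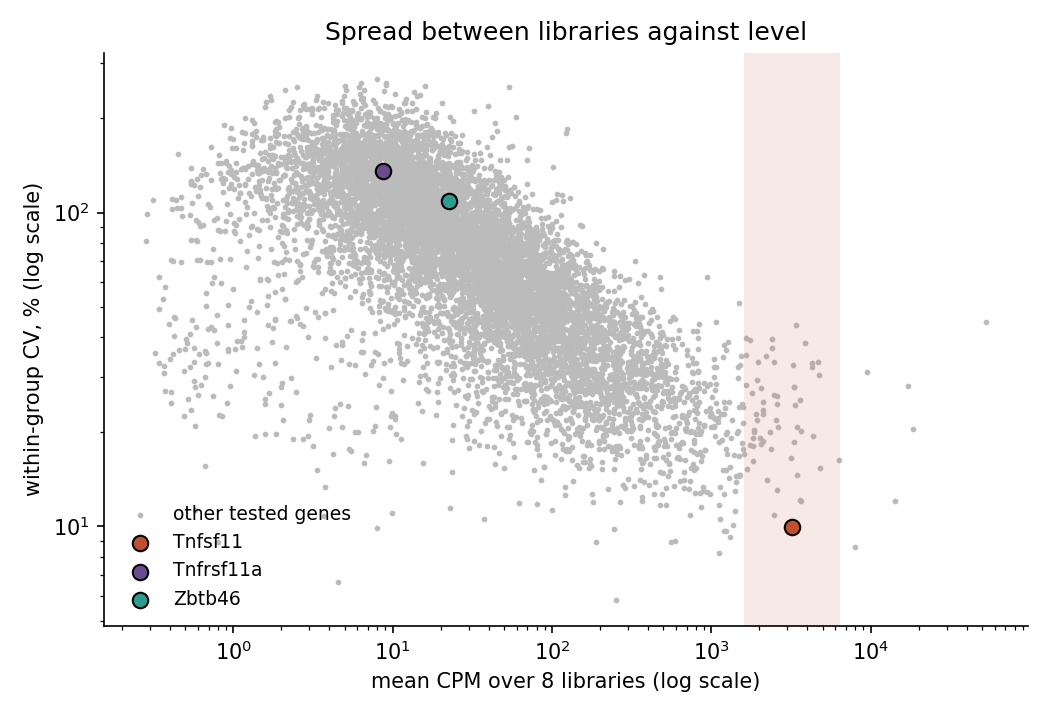
Within-group coefficient of variation (%, log scale) against mean level over the 8 libraries (CPM, log scale), with 1 grey point per tested gene. The shaded band holds the genes within a factor of 2 of Tnfsf11's mean, where Tnfsf11 is the lowest point at 9.96%. Tnfrsf11a, at 136%, lies among the scattered low genes, near Zbtb46.

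RANK transcript was scarce and uneven, and the libraries did not resolve a difference between the groups. Tnfrsf11a (Entrez ID 21934) lies on chromosome 1 from 105780673 to 105849444, on the plus strand, and its annotated transcript has 10 exons of 5027 bases in all. It had 326, 972, 2 and 252 counts in deficient replicates 5 to 8, against 12, 113, 3 and 260 counts in sufficient replicates 1 to 4. In CPM this was 9.30, 36.9, 0.0626 and 7.88 in deficient libraries, against 0.470, 4.67, 0.108 and 10.2 in sufficient ones. Each group held a library at or under the level that a count of 0 allows, deficient replicate 7 and sufficient replicate 3, and all 4 sufficient libraries lay within the deficient range. Deficient replicate 6 lay above every sufficient library, and the other 3 deficient libraries lay below the highest sufficient one. Tnfrsf11a averaged 13.5 ± 16.1 CPM in deficient and 3.87 ± 4.71 CPM in sufficient ILC3s (SD, n = 4 each), with medians of 8.59 and 2.57 CPM. The fitted log2 fold was 1.81 (SE 1.85), and its adjusted p was 0.9999 in edgeR's quasi-likelihood test. The 95% interval of the fold, 0.203 to 60.4, covers both a severalfold loss and a much larger gain. The exact two-sided permutation p for the mean CPM was 0.371. Deficient replicate 6 carried most of the difference. Without it the log2 fold was 0.59, and without sufficient replicate 4 it was 2.95.

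Such unevenness was common at this level. Within groups Tnfrsf11a had a coefficient of variation of 136%, where the 2542 tested genes within a factor of 2 of its mean had a median of 114%, and 70.5% of them varied less. Of the same genes, 77.1% had at least 1 library with 3 counts or fewer, and 54.7% had at least 2, as Tnfrsf11a did. Scaled to exon length, Tnfrsf11a averaged 1.73 CPM per kb and ranked 7284 among 8372 genes, between rank 4411 and rank 8013 in single libraries.

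RANK is also made by cells other than ILC3s, among them macrophages, dendritic cells and the M cell lineage. The markers of those cells are given here beside the Tnfrsf11a level. In deficient replicate 6, the library with the most Tnfrsf11a, macrophage and neutrophil markers summed to 11.7 CPM, against 374, 769 and 0.688 CPM in deficient replicates 5, 7 and 8 and 10.1, 1.08, 23.0 and 88.9 CPM in sufficient replicates 1 to 4. In deficient replicates 5 and 7 most of the sum was S100a8, at 238 and 316 CPM, and S100a9, at 94.1 and 359 CPM. Cd14 was at 39.1 and 49.7 CPM there, Lyz2 at 0.114 and 35.4 CPM, and Adgre1 at 2.65 and 6.26 CPM. The macrophage receptor gene Csf1r was at 0 and 0.125 CPM in these libraries. In no library did it exceed 3.21 CPM, and in deficient replicate 6 it was at 2.39 CPM. The 7 genes of M cells and follicle-associated epithelium summed to 14.2 CPM in that library, the lowest sum of the 8, within 14.2 to 74.0 CPM in deficient and 27.0 to 69.5 CPM in sufficient libraries. Of these genes, Tnfaip2 was present in every library, at 14.1 to 60.2 CPM, Ccl9 reached 26.5 CPM in deficient replicate 7, and the defining M cell genes Gp2, Spib and Sox8 did not exceed 0.511 CPM. The 8 dendritic cell genes summed to 582 CPM in deficient replicate 6, within 458 to 1175 CPM in deficient and 461 to 782 CPM in sufficient libraries. Most of that sum was Ccr7, which ILC3s also express, at 444 CPM in deficient replicate 6. Ccl17, at 66.7 CPM there, ran from 15.3 to 120 CPM in deficient and 13.9 to 62.4 CPM in sufficient libraries, and Xcr1, at 54.8 CPM there, from 28.7 to 115 CPM in deficient and 36.8 to 63.7 CPM in sufficient libraries. Flt3 and Itgax stayed at or below 0.219 CPM and Clec9a at or below 0.380 CPM in every library. Deficient replicate 6 had the highest Ccr6 level, at 340 CPM, and the fewest detected genes, 10668 of a range up to 14410. The part that these features play in the Tnfrsf11a level was not tested.

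Osteoprotegerin was absent from the counts of 7 libraries. Tnfrsf11b (Entrez ID 18383) lies on chromosome 15 from 54250619 to 54278484, on the minus strand, and its annotated transcript has 5 exons of 2818 bases in all. It had 0 counts in all 4 deficient libraries and in sufficient replicates 1, 3 and 4, where 0 counts allow at most 0.0856 to 0.118 CPM. In sufficient replicate 2 it had 122 counts, or 5.05 CPM. The group means were 0 CPM in deficient and 1.26 ± 2.52 CPM in sufficient ILC3s (SD, n = 4 each), a difference of -1.26 CPM with an exact two-sided permutation p of 1. Without sufficient replicate 2 both groups stood at 0 and there was no difference to measure. The gene did not pass the filter on low counts, and in an unfiltered edgeR fit of 19290 genes its adjusted p was 0.431.

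Sufficient replicate 2 was also the library with the most epithelial transcripts, although the sort had selected CD90-high CD127+ cells. Muc2, the main mucin of goblet cells, had 724 CPM there and at most 1.25 CPM elsewhere, and the epithelial adhesion gene Epcam had 137 CPM there and at most 0.354 CPM elsewhere. Mmp7, a metalloprotease of the intestinal epithelium that can cleave RANKL, had 0 counts in the 4 deficient libraries, against 0, 18.7, 1.08 and 0 CPM in sufficient replicates 1 to 4. Lgr4, a further receptor for RANKL that is best known from epithelial stem cells, had 2.54, 0.190, 6.26 and 0.156 CPM in deficient libraries, against 0.157, 80.9, 6.38 and 0.472 CPM in sufficient ones. Both were highest in sufficient replicate 2, together with Tnfrsf11b, Muc2 and Epcam. Most of the epithelial sum there was Muc2 and Lgals4, the latter at 388 CPM. Krt8, Krt18, Krt19 and Cldn7 were also highest there. Other listed epithelial genes were not raised in this way. Cdh1, Vil1 and Krt20 were each at 0.0414 CPM there, and Krt20 was highest in sufficient replicate 3, at 1.33 CPM. Car1 was highest in deficient replicate 6, at 8.39 CPM, against 2.85 CPM in sufficient replicate 2. Of the 7 genes listed for M cells and follicle-associated epithelium, Ccl20 had 19.2 CPM in sufficient replicate 2 and 0 in the other 7, Pglyrp1 had 9.02 CPM and Tnfaip2 14.4 CPM, and Gp2, Spib, Sox8 and Ccl9 had 0 counts. The endothelial gene Cdh5 had 0 counts in all libraries, and in sufficient replicate 2 stromal genes summed to 51.9 CPM, below the 786 CPM of sufficient replicate 1. The part of epithelial transcripts in the Tnfrsf11b counts was not tested. Osteoprotegerin also binds the death ligand TRAIL, whose gene Tnfsf10 had 4.99, 0, 5.16 and 0 CPM in deficient libraries, against 55.7, 0, 0 and 0 CPM in sufficient ones, and it was not tested.

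**Figure D3:**
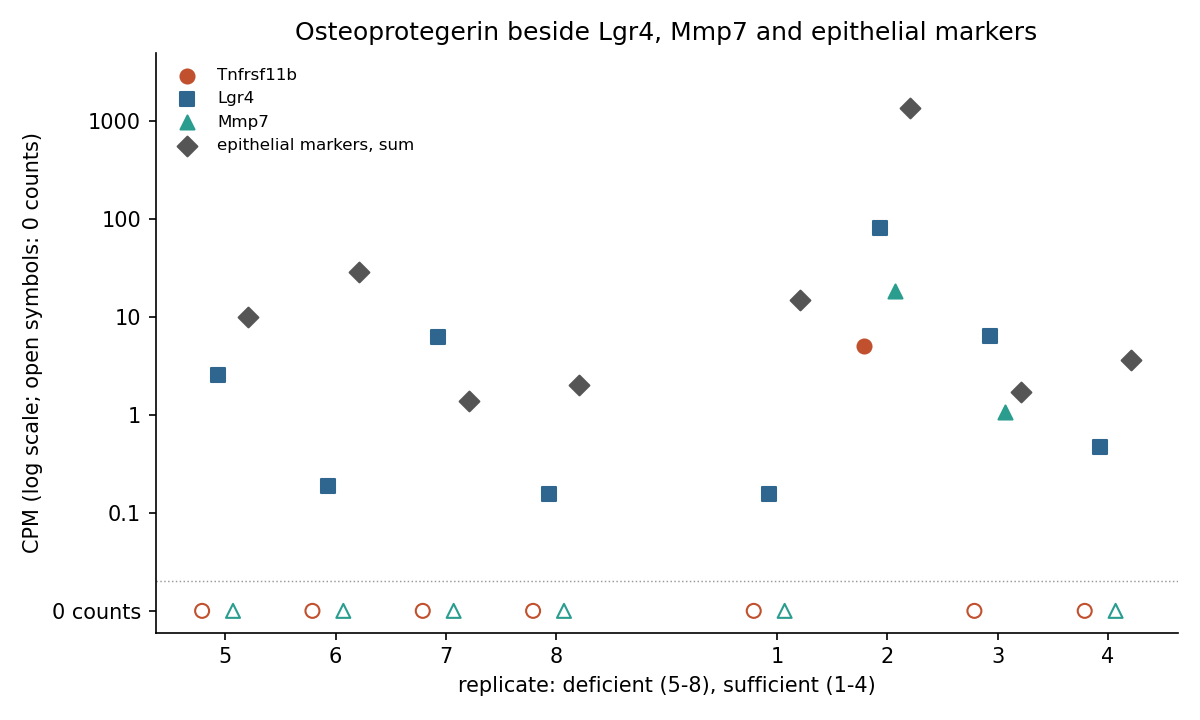
Tnfrsf11b, Lgr4, Mmp7 and the sum of 11 epithelial marker genes in each library (CPM, log scale), with deficient replicates 5 to 8 left of sufficient replicates 1 to 4 and open symbols for 0 counts. All 4 measures are highest in sufficient replicate 2, where the epithelial sum is 1369 CPM, Lgr4 80.9 CPM, Mmp7 18.7 CPM and Tnfrsf11b 5.05 CPM.

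Within each library, ligand transcript exceeded that of both receptors per unit of exon length. The ratio of Tnfsf11 to Tnfrsf11a in CPM per kb was 737, 214 and 867 in deficient replicates 5, 6 and 8, against 15556, 1434 and 813 in sufficient replicates 1, 2 and 4. In the 2 libraries with 2 or 3 receptor counts, deficient replicate 7 and sufficient replicate 3, the ratio came to 114558 and 58043 and rests on those few counts. The variation of the ratio follows Tnfrsf11a, since the levels of Tnfsf11 differed by a factor of 1.32 at most. The ratio of Tnfsf11 to Tnfrsf11b was 745 in sufficient replicate 2. In the other 7 libraries, with Tnfrsf11b set at 3 counts per library, it was at least 38892 in deficient and at least 32537 in sufficient libraries.

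The pathway around RANK was described through 7 lists of 56 genes, of which 46 were tested. EdgeR called 0 of the 46 in either direction, and every adjusted p was 0.9999. An unadjusted p under 0.05 was found for 4 of the 46, a larger share than the 4.10% over all tested genes. The lists were not tested as sets. Fitted folds were positive for 23 and negative for 23, with a median log2 fold of -0.0015 beside 0.016 over all tested genes. Among these 46 genes the groups did not overlap in 2 that were higher in deficient cells, Cyld and Irf8, and in 1 that was lower, Fos. Over all tested genes the corresponding shares were 2.26% higher and 2.10% lower. The values of single pathway genes are therefore given as measured levels, without a call.

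Among ligands and receptors, 3 of 5 were tested and 0 were called. Lgr4 averaged 2.29 ± 2.87 CPM in deficient and 22.0 ± 39.4 CPM in sufficient ILC3s, a log2 fold of -3.26 (SE 2.10), which was -0.039 without sufficient replicate 2 and -4.49 without deficient replicate 7. The median log2 fold of the list was 0.0091.

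The adaptors and kinases that carry the signal from RANK gave 15 tested genes of 17, with 8 positive and 7 negative fitted folds and a median of 0.096. The adaptor TRAF6, the main transducer of RANK, was present throughout, with Traf6 at 45.9, 184, 27.4 and 59.5 CPM in deficient libraries, against 148, 48.1, 29.2 and 71.5 CPM in sufficient ones. It is shown for its role, outside the rule for named genes. Chuk encodes the IkB kinase alpha of the alternative NF-kB pathway. It had 91.8, 166, 36.0 and 112 CPM in deficient libraries, against 215, 240, 137 and 320 CPM in sufficient ones, so that a single deficient library, replicate 6, reached into the sufficient range. Its log2 fold was -1.17 (SE 0.456) with an unadjusted p of 0.0280 in edgeR's quasi-likelihood test. Mapk14, the p38 alpha kinase, averaged 249 ± 138 CPM in deficient and 157 ± 34.7 CPM in sufficient cells, and the adaptor Traf1 averaged 194 ± 74.6 CPM in deficient and 140 ± 65.1 CPM in sufficient cells.

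Of the transcription factors downstream of RANK, 7 of 8 were tested, and 5 of these had negative fitted folds, with a median of -0.55. Fos, a partner in the AP-1 dimer that osteoclast formation requires, had 314, 308, 411 and 273 CPM in deficient libraries, against 536, 490, 416 and 500 CPM in sufficient ones. Each deficient value was below each sufficient value, although deficient replicate 7 and sufficient replicate 3 stood close together, at 411 and 416 CPM. Its log2 fold was -0.57 (SE 0.208) with an unadjusted p of 0.0203 in edgeR's quasi-likelihood test. The alternative NF-kB subunits were Relb, at 52.4 ± 7.06 CPM in deficient and 101 ± 46.7 CPM in sufficient cells, and Nfkb2, at 66.4 ± 27.7 CPM in deficient and 108 ± 31.0 CPM in sufficient cells. Their log2 folds were -0.95 and -0.70 with standard errors of 0.452 and 0.459. Mitf, a factor of osteoclasts and melanocytes, did not pass the filter, with 31.3, 5.32, 0 and 8.35 CPM in deficient libraries, against 0.0391, 0.0827, 0.180 and 0 CPM in sufficient ones. It was the 1 gene of these lists that DESeq2 called, and it was named after its values were seen.

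Inhibitors of RANK and NF-kB signalling contributed 9 tested genes of 10, with 3 positive and 6 negative fitted folds and a median of -0.16. Cyld, a deubiquitinase that acts on TRAF6 and other NF-kB components, had 172, 273, 219 and 174 CPM in deficient libraries, against 133, 105, 170 and 117 CPM in sufficient ones. The ranges came close without overlapping, at 172 CPM in deficient replicate 5 and 170 CPM in sufficient replicate 3. The log2 fold was 0.68 (SE 0.286). Birc3, a ubiquitin ligase that keeps the alternative pathway in check, had 178, 180, 133 and 255 CPM in deficient libraries, against 424, 320, 253 and 263 CPM in sufficient ones, a log2 fold of -0.76 (SE 0.283). The unadjusted p in edgeR's quasi-likelihood test was 0.0393 for Cyld and 0.0233 for Birc3.

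Irf8, which holds back osteoclast formation in myeloid precursors, had 13.6, 16.6, 7.63 and 25.7 CPM in deficient libraries, against 5.75, 0.331, 0.937 and 0.0786 CPM in sufficient ones. The groups did not overlap, and the log2 fold was 3.16 (SE 1.59) with an unadjusted p of 0.0747 in edgeR's quasi-likelihood test. Without sufficient replicate 1, the highest of its group, the log2 fold was 5.12, and without sufficient replicate 4 it was 2.76. Irf8 also marks dendritic cells of the cross-presenting type. Other markers of that type were Clec9a, at 0.380 CPM in deficient replicate 6 and 0 in every other library, and Xcr1, at 115, 54.8, 28.7 and 37.2 CPM in deficient libraries, against 36.8, 61.6, 63.7 and 38.6 CPM in sufficient ones. The part of such cells in the Irf8 level was not tested.

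**Figure D4:**
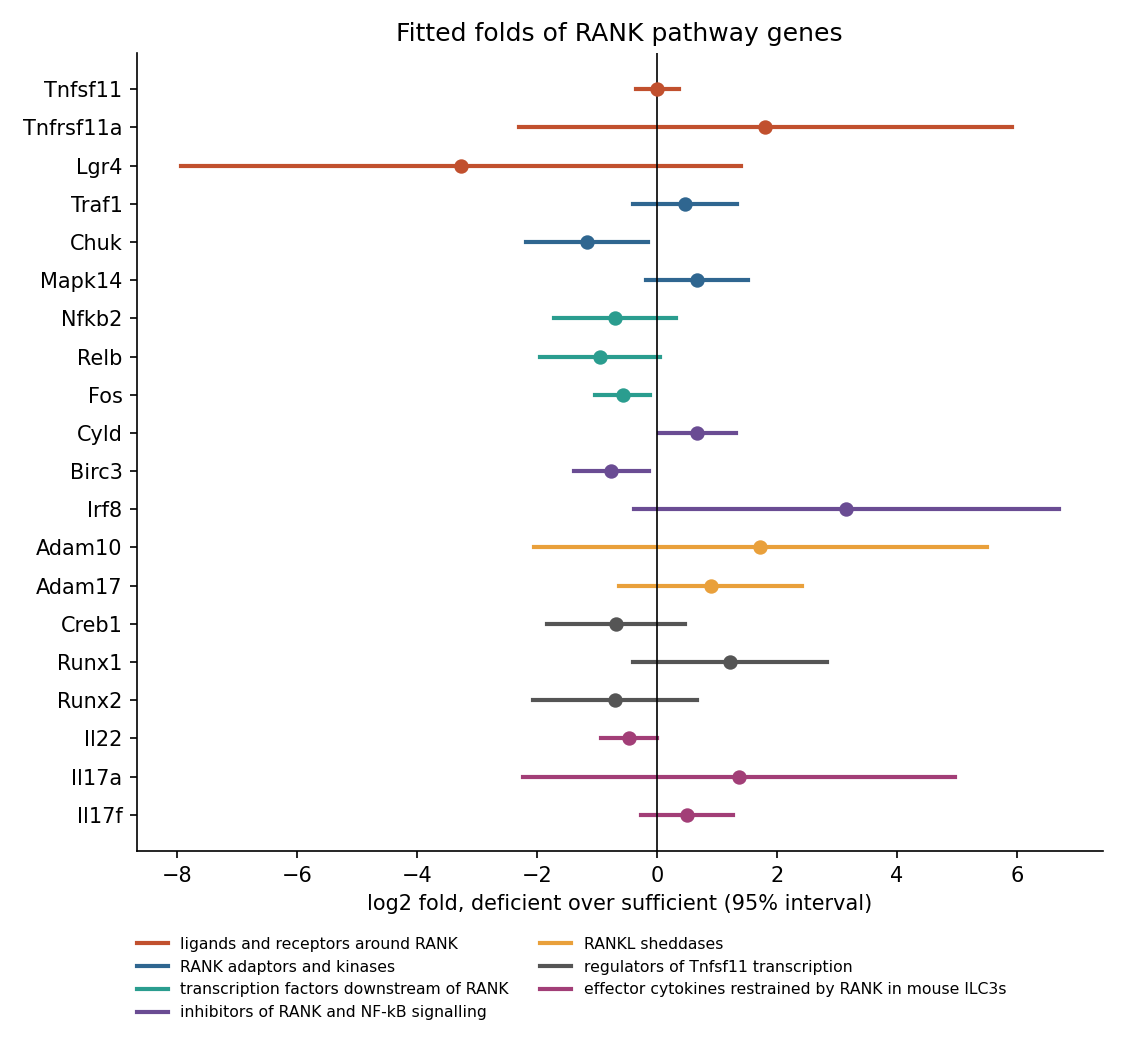
Log2 fold, deficient over sufficient, with its 95% interval for 20 tested genes of the RANK pathway, coloured by list. Values right of the vertical line at 0 are higher in deficient libraries. Tnfsf11 has the narrowest interval of the genes drawn, from -0.35 to 0.37, and Tnfrsf11a, Lgr4, Irf8, Adam10 and Il17a have intervals several log2 units wide.

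The proteases that release RANKL from the membrane were mostly too low to test, with 2 of 5 in the fit. Adam17 averaged 52.8 ± 24.1 CPM in deficient and 28.3 ± 13.1 CPM in sufficient cells, and Adam10 averaged 26.8 ± 22.3 CPM in deficient and 8.11 ± 9.88 CPM in sufficient cells. Their log2 folds were 0.90 and 1.73 with standard errors of 0.685 and 1.70. Adam10 was at 7.65, 44.4, 7.41 and 47.9 CPM in deficient libraries, against 0.0391, 0.165, 20.4 and 11.8 CPM in sufficient ones, and so it overlapped between the groups. Its log2 fold was 2.77 without sufficient replicate 3 and 1.29 without deficient replicate 8.

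Known regulators of Tnfsf11 transcription gave 7 tested genes of 8, with 4 positive and 3 negative fitted folds and a median of 0.063. Runx1, a runt factor of haematopoietic cells, averaged 120 ± 32.2 CPM in deficient and 51.2 ± 51.5 CPM in sufficient cells, while its relative Runx2 averaged 64.2 ± 39.3 CPM in deficient and 104 ± 52.4 CPM in sufficient cells. Creb1, which acts on distal Tnfsf11 enhancers in mouse stromal cells, averaged 109 ± 79.0 CPM in deficient and 174 ± 40.8 CPM in sufficient cells. The log2 folds were 1.22, -0.69 and -0.68 with standard errors of 0.725, 0.614 and 0.520. Runx1 was at 124, 95.8, 163 and 94.8 CPM in deficient libraries, against 124, 23.3, 7.35 and 50.5 CPM in sufficient ones. Its log2 fold was 2.14 without sufficient replicate 1, the 1 sufficient library within the deficient range, and 0.87 without sufficient replicate 3. The spread between libraries of Runx1, Runx2 and Creb1 was wider than that of Tnfsf11, which stood at a far higher level in the same libraries. Whether Tnfsf11 follows these genes was not tested.

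The effector cytokines that RANK signalling restrains in mouse ILC3s included the most abundant transcript of the lists. Il22 had 13727, 13570, 15425 and 18953 CPM in deficient libraries, against 15031, 25512, 20456 and 23954 CPM in sufficient ones, a log2 fold of -0.46 (SE 0.212). Il17f averaged 2796 ± 983 CPM in deficient and 1978 ± 766 CPM in sufficient cells, a log2 fold of 0.50 (SE 0.344). Il17a was low, at 27.7 ± 23.5 CPM in deficient and 10.7 ± 11.3 CPM in sufficient cells, a log2 fold of 1.38 (SE 1.62) that was 2.31 without sufficient replicate 2 and 0.69 without deficient replicate 5. The unadjusted p in edgeR's quasi-likelihood test was 0.0543 for Il22, 0.177 for Il17f and 0.414 for Il17a. Il22 thus had a lower mean in deficient libraries and both interleukin 17 genes a higher one, with overlapping groups in each case.

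Genes whose levels followed Tnfsf11 from library to library were sought among 6694 tested genes whose mean reached 10 CPM. Over the 8 libraries the highest Pearson correlations of log2 CPM belonged to Ets1, a transcription factor of lymphocytes (r = 0.954, rho = 0.929), Azin1, a regulator of polyamine synthesis (r = 0.937, rho = 0.929), and Igbp1, a regulatory partner of protein phosphatases (r = 0.923, rho = 0.929). Without the 2 libraries farthest from the median of Tnfsf11, r was 0.904, 0.925 and 0.905. Ets1 averaged 665 CPM in deficient and 688 CPM in sufficient cells, and Azin1 averaged 753 CPM in both. For Tnfrsf11a, among 6695 genes, they were Kifap3, a subunit of a kinesin motor that also lies on chromosome 1 (r = 0.982, rho = 0.970), the matrix glycoprotein gene Tnc (r = 0.958, rho = 0.929) and the lysosomal mannosidase gene Man2b1 (r = 0.952, rho = 0.976). Without the 2 farthest libraries these were 0.974, 0.895 and 0.951. These are the extremes of all such correlations over 8 libraries that share their depths and detection limits, and they are descriptions only. In all, 7 genes exceeded r = 0.9 with Tnfsf11 and 21 with Tnfrsf11a, and 19 and 13 genes lay under r = -0.9.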

How the data were processed

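RNA was sequenced from sorted CCR6+ ILC3s of 8 mice after cDNA amplification with a kit for small inputs (per the labels' protocols). Processing notes from the submitters name CASAVA 1.8.2, STAR 2.3.0 and the build mm10. The authors deposited whole-number read counts per Entrez gene ID, without normalization. The counting tool, its annotation and its use of strand were not given in the sources used here, and antisense reads may be included. Symbols came from the RefSeq gene table of GRCm38.p6 (25275 of 27179 rows matched) and exon lengths from GENCODE M21, as the union of exons. The 3 genes have 0 overlapping annotated genes.

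Counts were tested with edgeR 4.0.16 in R 4.3.3 (quasi-likelihood F test, TMM factors, filterByExpr by group, Benjamini-Hochberg over 8878 genes, threshold 0.05), after the code was tested on simulated data. Standard errors and 95% intervals were derived from that F test. Exact permutation tests served for single values. Groups came from the sample titles. Replicate numbers 1 to 8 are not shared between groups, so nothing pairs the mice. The kit has no molecular identifiers stated, so limits from 0 counts cover counting error only. The members, lists and tests were chosen with earlier results of these data known. Named genes were the 3 members, Zbtb46, Lgr4, Tnfsf10, the 3 tested genes with the smallest p in each list, and the 3 genes with the highest correlation to a tested member. Alternatives were RLE, upper-quartile and no scaling, DESeq2 1.42.0, limma-voom (limma 3.58.1), robust dispersions, no filter, a filter of 5 CPM in 4 libraries, and libraries left out. Added after the data were seen were edgeR's newer dispersions and leaving out 3 libraries rich in other cells' markers.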

Additional observations from a re-analysis of the deposited data

Results flagged for a closer look

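In 45 groups of 4 libraries examined for the members and named pathway genes, 4 had 1 library far from the other 3. Chance would give about 1 in 20 groups, or 2.25 of the 45, if the values were normally distributed, which CPM near the floor need not be. The 45 count the groups of Tnfsf11 and Tnfrsf11a both as members and as named pathway genes, so the number for distinct groups is slightly lower. The value that stood apart was 5.05 CPM of Tnfrsf11b in sufficient replicate 2, with 0 in the other sufficient libraries. With those at 0, any value above 0 would stand apart by this rule. In the same library Lgr4 had 80.9 CPM, against 0.157 to 6.38 CPM in the remaining ones, and Traf1 had 237 CPM, with 97.5 to 116 CPM in the others. Irf8 had 5.75 CPM in sufficient replicate 1, with 0.0786 to 0.937 CPM in the others. Sufficient replicate 2 held 1369 CPM of epithelial markers. Sufficient replicate 1 held 786 CPM of stromal markers, of which Dcn gave 687 CPM. The part of these markers in the values was not tested.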

How the results depend on the processing

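The fitted log2 fold of Tnfsf11 lay so near 0 that its sign turned under several alternatives while its size stayed between -0.039 and 0.10 over all 19, with an adjusted p of at least 0.970. It was -0.012 in limma-voom, -0.025 without sufficient replicate 1 and deficient replicate 6, -0.018 without sufficient replicates 1 and 2 and deficient replicate 7, and -0.039 to 0.087 with 1 library left out. Tnfrsf11a kept a positive log2 fold in 19 of 19, from 0.22 without sufficient replicate 1 and deficient replicate 6 to 2.95 without sufficient replicate 4, and 0.59 to 2.95 with 1 library left out. The Tnfrsf11b difference ranged from -1.69 to 0 CPM. DESeq2 called 374 genes, 1 of them in the RANK pathway lists (Mitf, log2 fold 7.23, adjusted p 0.00694). EdgeR called 2 genes without the filter and 0 to 2 with 1 library left out, 2 of them without deficient replicate 6. Zbtb46 had an adjusted p of 0.0115 in DESeq2. The 18 named pathway genes kept their direction and stayed uncalled in 341 of 341 values. Among these, Lgr4 had no adjusted p in DESeq2, and its log2 fold was -0.039 without sufficient replicate 2. The genes were named by their p in the same libraries that the alternatives refit, so a kept direction is no independent support. No paired analysis was possible because the groups share no replicate number. Tnfrsf11a and Tnfrsf11b rest on 2 to 972 and 0 to 122 counts per library. Deficient replicate 6, with 972 Tnfrsf11a counts, has 26967170 counts in all, and deficient replicate 7, with 2, has 29603977.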
